A study of Mus musculus with 6 samples.

Results

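The tubulin genes are described here in sorted Peyer's patch phagocytes with and without the complement fragment C5a. The members are 8 genes, the alpha-tubulins Tuba1a, Tuba1b, Tuba1c and Tuba4a and the beta-tubulins Tubb2a, Tubb4b, Tubb5 and Tubb6. They were found on the arrays as the probes whose RefSeq accession names a gene of this set, which gave 13 of 56605 probes. Of these genes, 7 were among the 4488 genes that could be compared. Of the 4488, 3276 had a gene symbol, and the rest were unnamed probes, each counted as a gene. The set was chosen by the detection of Tuba1a in this same comparison, where its signal cleared the background in the C5a samples alone. The C5a comparison of the members is therefore a description. They were part of the fit across all genes, from which their standard errors and intervals come, and no p-value is given for them.

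Microtubules are hollow polymers built from dimers of alpha- and beta-tubulin. Mammals carry several genes for each chain, whose proteins are nearly identical and whose use differs between tissues. In macrophages and dendritic cells, microtubules position the nucleus and lysosomes, carry vesicles and MHC class II tubules, and steer migration. When unpolymerised tubulin builds up, cells degrade tubulin mRNA as it is translated, so the messages of the different genes can move together.

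The samples were lysozyme-expressing dendritic cells (LysoDCs) of mouse Peyer's patches, the lymphoid follicles of the gut wall, that carried the C5a receptor C5aR. Cells selected with CD11c beads were sorted and kept in RPMI-1640 medium with serum, CSF-1 and a factor spelled CFS-2 in the labels. The untreated group (0 nM C5a) had 3 samples and the C5a group 3 samples that received 100 nM recombinant C5a for 3 h. Strain, age and sex, and the culture time of the untreated cells, are not given in the sources used here. Nothing says whether samples came from separate animals, so the spread between them may in part be technical. RNA of each sample was labelled with Cy3 and hybridised to a 1-colour Agilent array, giving 6 arrays on 1 slide.

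Agilent's software marks a spot as well above background when its signal clears the background by a set margin, and 2727 to 6959 of the 56605 probes per array reached it. Before scaling, the 75th percentile of signal over the 2370 probes detected on every array was lowest on untreated 3 (109) and highest on untreated 2 (460). Of 17 markers of mononuclear phagocytes and dendritic cells, 9 were well above background on all 6 arrays, among them Itgax (CD11c), Csf1r, Lyz1 and Lyz2. The dendritic cell markers Flt3 and Zbtb46 and the macrophage markers Mertk, Fcgr1 and Cx3cr1 were well above background on 0 arrays. The rest of the 17, H2-Aa, Batf3 and the C5aR gene C5ar1, were detected on some arrays but not on all 6. All 7 epithelial, 5 T cell, 4 NK cell, 5 stromal and endothelial and 4 mast cell markers measured were well above background on 0 arrays. So were 4 of 6 B cell markers but only 1 of 3 plasma cell markers measured. The other markers of these 2 types were detected on some arrays, and 0 on all 6. Of 5 neutrophil markers only Csf3r, a cytokine receptor also found on monocytes, was detected, on all 6 arrays. The summed signal of the 6 B cell markers, relative to each array's 75th percentile, ran from 0.129 to 0.359 in untreated and from 0.111 to 0.269 in C5a samples. The summed signal of the 17 phagocyte and dendritic cell markers on the same scale was 70.4, 85.7 and 81.1 in the untreated samples 1 to 3, against 70.1, 55.3 and 69.2 with C5a. Every C5a sample was thus below the lowest untreated one, with C5a 1 and untreated 1 close together, and the part of this in the results was not tested. In bulk RNA, fewer cells of a type and less RNA per cell cannot be told apart.

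The tubulins fell into 3 kinds by detection. Tuba1b, Tuba1c, Tubb2a, Tubb4b, Tubb5 and Tubb6 had a probe well above background on all 6 arrays. Tuba4a, an alpha-tubulin whose gene does not encode the usual C-terminal tyrosine, was well above background on 0 arrays with either of its probes. Its unscaled signals lay between 2.28 and 3.98, 0.995 to 1.75 times the software's own error of the spot. Tuba1a, an alpha-tubulin best known for its abundance in developing neurons, cleared the mark in 3 of 3 C5a samples but in 0 of 3 untreated samples. Of the 8 genes Tuba1a alone had this pattern, and its probe was 1 of 4 among all 56605 (0.00707%). Since the pattern chose the set, nothing is read from that share.

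The 3 alpha-tubulin genes Tuba1b, Tuba1a and Tuba1c lie near each other on chromosome 15, in this order, yet showed different detection. Their upstream sequences are shown to set the gene with the C5a-only detection beside its constantly detected neighbours. Tubb2a is added as the only one of the 7 member promoters searched with a cAMP response element. The 250 bases before each RefSeq transcript start (assembly GRCm38.p6) are written 5′ to 3′ on the gene's strand, with capitals marking motif matches. Tuba1a is at chr15:98953502-98953751, minus strand; Tuba1b at chr15:98934391-98934640, minus strand; Tuba1c at chr15:99029641-99029890, plus strand; and Tubb2a at chr13:34078009-34078258, minus strand.
Tuba1a: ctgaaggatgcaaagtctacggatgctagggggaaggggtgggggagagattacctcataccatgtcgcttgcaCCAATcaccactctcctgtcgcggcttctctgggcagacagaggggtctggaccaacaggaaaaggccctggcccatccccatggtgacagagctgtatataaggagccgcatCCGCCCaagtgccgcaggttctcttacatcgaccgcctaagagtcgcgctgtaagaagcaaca
Tuba1b: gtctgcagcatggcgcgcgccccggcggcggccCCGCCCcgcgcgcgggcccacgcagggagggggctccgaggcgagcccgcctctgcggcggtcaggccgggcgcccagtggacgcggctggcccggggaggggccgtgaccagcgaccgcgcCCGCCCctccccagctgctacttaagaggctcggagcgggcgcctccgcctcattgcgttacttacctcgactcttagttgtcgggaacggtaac
Tuba1c: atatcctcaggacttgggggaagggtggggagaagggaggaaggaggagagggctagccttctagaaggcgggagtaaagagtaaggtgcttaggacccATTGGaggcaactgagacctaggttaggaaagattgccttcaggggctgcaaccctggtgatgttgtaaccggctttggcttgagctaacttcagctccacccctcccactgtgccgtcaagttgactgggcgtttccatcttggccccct
Tubb2a: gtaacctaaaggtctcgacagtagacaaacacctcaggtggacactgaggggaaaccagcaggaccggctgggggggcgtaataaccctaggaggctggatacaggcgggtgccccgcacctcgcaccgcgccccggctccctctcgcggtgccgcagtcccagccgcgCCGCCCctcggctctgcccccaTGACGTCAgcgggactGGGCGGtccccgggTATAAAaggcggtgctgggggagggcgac

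RefSeq promoter entries matched 7 of the 8 members, with no entry used for Tubb6. Both strands of each 250-base window were searched for the TATA box (TATAAA), the CCAAT box (CCAAT), the GC box (GGGCGG), the AP-1 site (TGACTCA), the cAMP response element (TGACGTCA), the E-box (CACGTG) and the serum response CArG box. The window of Tuba1a held a CCAAT box 176 to 172 bases and a GC box 63 to 58 bases before the start. The windows of Tuba1b held 2 GC boxes and that of Tuba1c a CCAAT box. CCAAT and GC boxes occur in 33.8% and 32.7% of all 32851 promoter windows. The cAMP response element of Tubb2a, 59 to 52 bases before its start, occurs in 1.55% of windows, and its TATA box in 12.4%. AP-1 and CArG letters, found in 4.46% and 1.47% of all windows, matched 0 of the 7 tubulin windows. The GC content was 56.8% for Tuba1a, 75.6% for Tuba1b, 55.6% for Tuba1c and 68.4% for Tubb2a. No match overlapped another in the printed windows. Variants of the letters given were not searched, so a window without a match may still hold one. These are descriptions of letters and say nothing about binding.

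Signals before scaling show how the Tuba1a probe stood on each array. Its processed signal was 11.2, 14.5 and 7.13 on the untreated arrays 1 to 3, with a software error of 5.01, 5.17 and 5.17. It was 34.4, 171 and 27.0 in C5a 1 to 3, with an error of 4.45, 17.3 and 3.77. The untreated signals were 1.38 to 2.80 times their error and the C5a signals 7.16 to 9.90 times. The lowest C5a signal lay above the highest untreated signal. The mark did not follow signal alone. Tuba1a at 14.5 (error 5.17) on untreated 2 was not marked, while a Tuba1c probe at 13.1 (error 2.79) on C5a 1 was. The dimmer Tubb4b probe had untreated errors of 4.72 to 5.19, near those of Tuba1a. The part of this error in the detection pattern of Tuba1a was not tested.

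**Figure D1:**
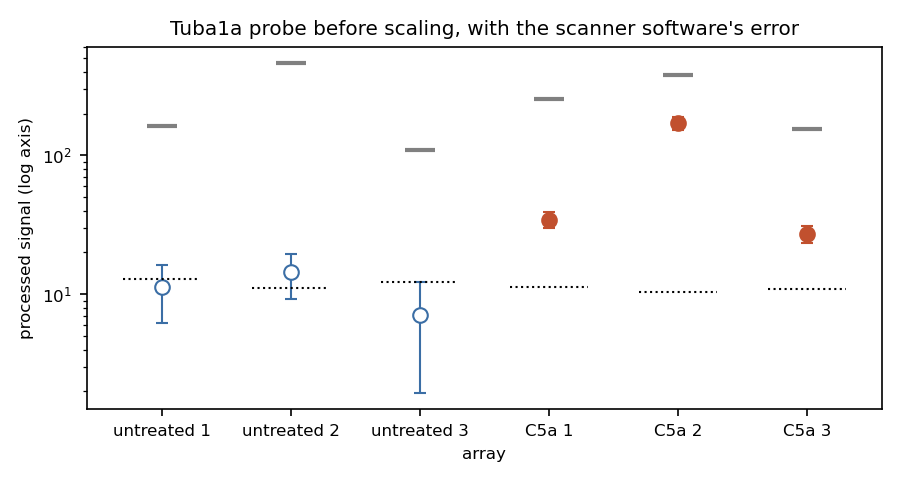
Processed signal of the Tuba1a probe on each array on a log axis, with the scanner software's error as bars, filled where well above background; dotted lines mark the lowest signal of any spot well above background on that array and grey bars its 75th percentile over detected probes. The untreated signals of 7.13 to 14.5 lie near the dotted lines, and the C5a signals of 27.0 to 171 lie above them.

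The arrays differed in how many probes they detected. Of 3311 probes well above background on all 3 C5a arrays, 99.6% were also detected on untreated 2, 86.1% on untreated 1 and 75.3% on untreated 3. Tuba1a was among the 12 that were not detected on untreated 2. A less strict flag of the same software, a positive signal significantly above background, was set for Tuba1a in all 6 samples. The pattern thus concerns the stricter flag. On the untreated arrays the Tuba1a spot gave a weak signal, 1.38 to 2.80 times its error. Whether it came from Tuba1a or a related transcript was not tested.

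Levels were then compared as log2 signal minus each array's 75th percentile over probes detected on all arrays. Tuba1a was at -3.86, -4.99 and -3.93 in untreated 1 to 3 and at -2.88, -1.14 and -2.51 in C5a 1 to 3. The groups did not overlap, C5a 2 was the highest sample and untreated 2 the lowest. Untreated 2 was lowest only after scaling. Its signal of 14.5 was the highest of the untreated arrays, and so was its 75th percentile of 460. Group means were -4.26 ± 0.63 (SD, n = 3) untreated and -2.18 ± 0.92 (SD, n = 3) with C5a. Because the untreated signals were not well above background, a further ratio was taken with the untreated levels raised. Each was set to the lowest level called well above background on its array, or kept where its own level was higher. The mean of Tuba1a was then 3.38-fold higher with C5a. This is no lower limit, because an unflagged spot can lie above the lowest flagged one. On untreated 2 the unflagged Tuba1a signal was 14.5, and the lowest flagged signal was 11.1. The ratio holds for the group means under this scaling and carries no replicate error. The measured ratio of means was 4.24-fold, with a 95% interval from 1.77 to 10.2. Since these same values chose the set, the interval is no test, and nothing is read from its limits. Among the arrays of slide row 1 the log2 difference was 1.38 (C5a 1 against the untreated arrays), and with the normexp background correction it was 0.57. Tuba1a entered the comparison of 4488 genes only through its C5a arrays, since a probe had to be well above background on at least 3 arrays.

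**Figure D2:**
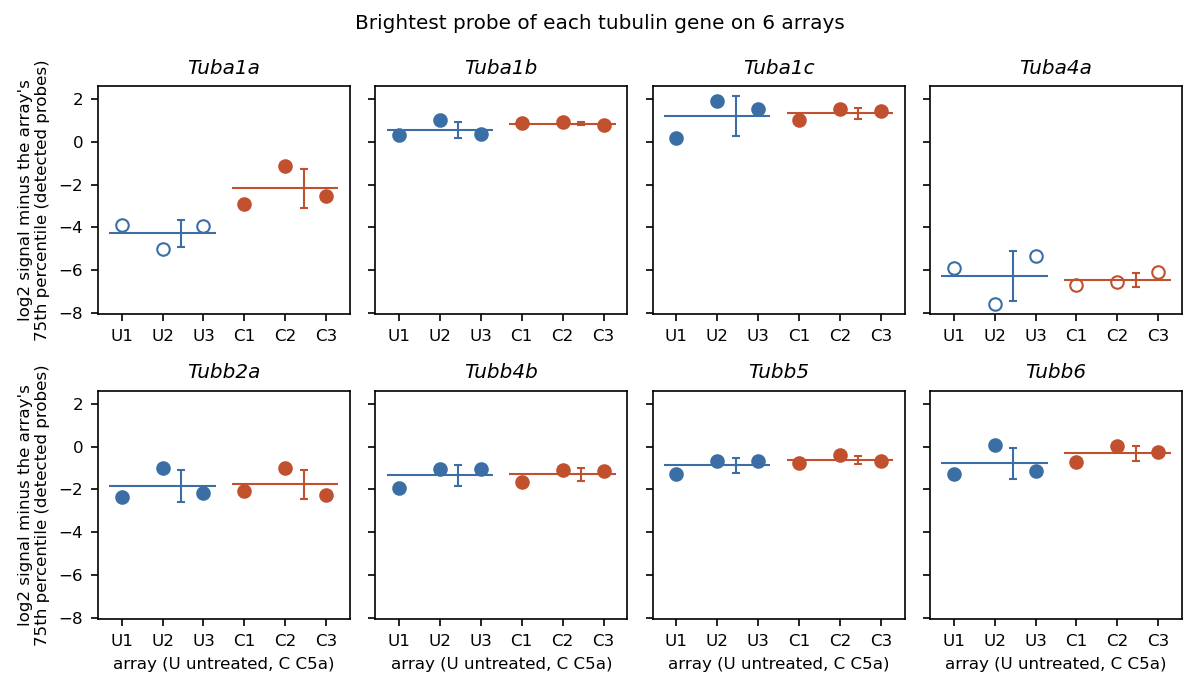
Level of the brightest probe of each tubulin gene on each array, as log2 signal minus the array's 75th percentile over detected probes; filled points are well above background, open points are not, lines are group means and bars the SD (n = 3). Tuba1a runs from -4.99 to -3.86 without and from -2.88 to -1.14 with C5a, while the other detected genes overlap between groups.

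The other alpha-tubulins overlapped between the groups. Tuba1b, an alpha-tubulin made in most cell types, was at 0.32, 1.00 and 0.36 in untreated 1 to 3 and at 0.86, 0.90 and 0.76 in C5a 1 to 3. The 3 C5a samples lay within the range of the untreated ones. The difference, C5a minus untreated, was 0.28 (SE 0.29, 95% interval -0.40 to 0.96). Tuba1c, another widely made alpha-tubulin, was at 0.16, 1.91 and 1.53 in untreated 1 to 3 and at 1.01, 1.53 and 1.43 in C5a 1 to 3. Untreated 1 was the lowest sample and untreated 2 the highest, with the C5a samples between them. Tuba1c differed by 0.12 (SE 0.48, 95% interval -1.002 to 1.25), and the sign turned when untreated 1 was left out (-0.40).

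The beta-tubulins also overlapped. Tubb5, the main beta-tubulin of most cells, was at -1.27, -0.66 and -0.69 in untreated 1 to 3 and at -0.78, -0.41 and -0.67 in C5a 1 to 3, a difference of 0.26 (SE 0.29, 95% interval -0.43 to 0.94). Tubb4b, a widely made beta-tubulin also used in cilia, was at -1.92, -1.06 and -1.06 in untreated 1 to 3 and at -1.63, -1.09 and -1.15 in C5a 1 to 3, a difference of 0.06 (SE 0.34, 95% interval -0.75 to 0.87). For both genes untreated 1 was the lowest sample.

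Tubb2a, a beta-tubulin prominent in neurons, was at -2.37, -0.99 and -2.18 in untreated 1 to 3 and at -2.05, -1.004 and -2.24 in C5a 1 to 3. The samples numbered 2 were the highest of each group, and the difference was 0.08 (SE 0.49, 95% interval -1.09 to 1.24). Tubb6, a beta-tubulin of non-neuronal tissues, was at -1.28, 0.06 and -1.14 in untreated 1 to 3 and at -0.70, 0.01 and -0.25 in C5a 1 to 3. All C5a samples of Tubb6 lay above untreated 1 and 3 but not above untreated 2. Its difference was 0.47 (SE 0.43, 95% interval -0.53 to 1.47), and it was 0.89 without untreated 2.

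Fitted with limma across 4488 genes, 0 (0%) passed an adjusted p of 0.05 (Benjamini-Hochberg). The 7 tubulin genes measured were part of this fit, and nothing is read from their calls. The lowest adjusted p of all genes was 0.9992, and 105 genes had an unadjusted p under 0.05. The 6 tubulins other than Tuba1a all had positive differences, from 0.06 to 0.47, of which Tubb2a and Tubb4b turned negative with another background correction (normexp). Their median was 0.19, beside 0.04 for all genes, of which 54.9% were positive. Groups did not overlap, with C5a above, for 1 of the 7 (Tuba1a), and for 3.36% of all genes. The opposite, C5a below, held for 0 of the 7 and for 2.32% of all genes. With 3 samples a group the 6 intervals were wide, with upper limits of 0.87 to 1.47. These limits describe each gene alone and are not the largest rise that the fit across 4488 genes could miss.

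**Figure D3:**
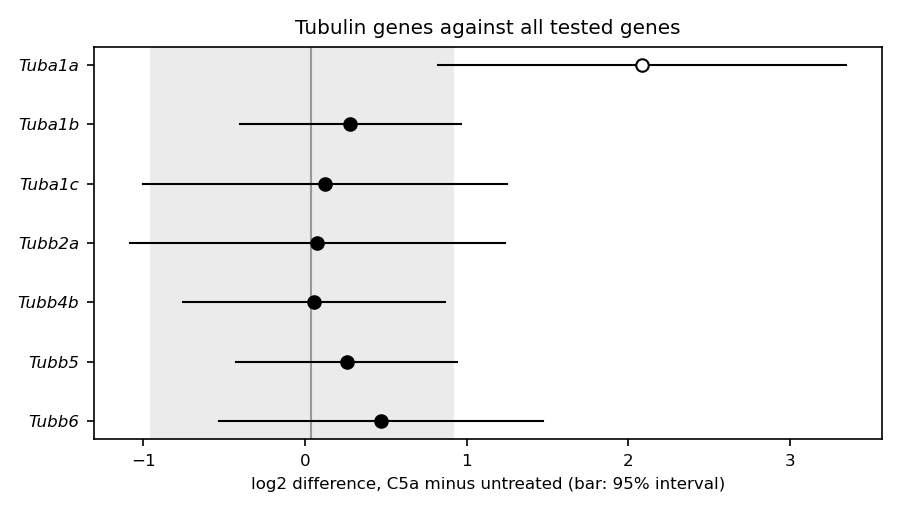
Log2 difference of each measured tubulin gene, C5a minus untreated, with its 95% interval from limma; the shaded band holds the central 95% of all 4488 genes (-0.95 to 0.91) and the grey line their median. The 6 filled points lie within the band with intervals across 0, and Tuba1a (open, not well above background in untreated samples) lies at 2.08, where the measured untreated values were used. Its values chose the set, so nothing is read from its interval.

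Samples carry the numbers 1 to 3 in both groups, and same-numbered samples deviated together across genes. Taken by number, C5a minus untreated was 0.98, 3.85 and 1.42 for Tuba1a, positive in 3 of 3. It was 0.49, 0.26 and 0.02 for Tubb5, also positive in 3 of 3. For Tubb6 the values were 0.58, -0.05 and 0.88, and for Tuba1b 0.54, -0.10 and 0.40. Tuba1c, Tubb2a and Tubb4b were positive in number 1 and negative in numbers 2 and 3. Number 1 was thus positive for all 7 genes, and untreated 1 was the lowest sample of the 6 genes other than Tuba1a. For Tuba1a the lowest was untreated 2, but only after scaling.

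Comparing tubulins within an array removes the scaling between arrays. On each array the mean of the 6 constantly detected tubulins was subtracted from Tuba1a. The result was -2.80, -5.03 and -3.40 on the untreated arrays 1 to 3, against -2.34, -1.13 and -2.16 on the C5a arrays. The groups again did not overlap, and the gap between untreated 1 and C5a 1 was the narrowest. The same subtraction of the other 5 left each of the 6 tubulins with overlapping groups, and with differences between group means from -0.19 for Tubb4b to 0.31 for Tubb6. For Tuba1a it was 1.87, from values of which the untreated ones were not well above background. The gap of Tuba1a restates the values that chose the set, and nothing is read from it.

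**Figure D4:**
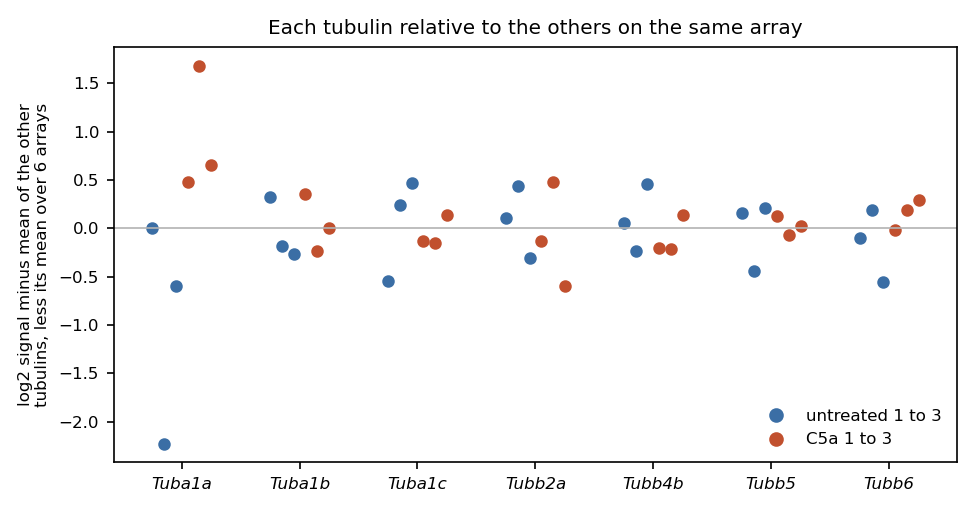
Log2 signal of each tubulin gene minus the mean of the other constantly detected tubulins on the same array, less that gene's own mean over the 6 arrays, for untreated (blue) and C5a (red) arrays 1 to 3 from left to right. For Tuba1a the C5a arrays (0.47 to 1.68) lie above the untreated arrays (-2.22 to 0.01), and in the other genes the groups overlap.

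Spread between samples differed among the tubulins. The residual SD was 0.28 for Tuba1b and for Tubb5, 0.41 for Tubb4b, 0.58 for Tubb6, 0.68 for Tuba1c, 0.71 for Tubb2a and 0.79 for Tuba1a, beside a median of 0.47 over all genes. Of all genes, 80.6% had a smaller spread than Tuba1a and 21.9% a smaller spread than Tubb5. Tuba1c had a probe printed in 10 spots on each array, which gives the error within an array. The SD over its spots was 0.08 to 0.25 on the log2 scale, while the SD between samples was 0.92 untreated and 0.28 with C5a. The Tuba1a probe had 1 spot per array, so that no such check was possible for it.

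Genes with several probes gave a check on the direction. Tuba1b had a further probe well above background on all 6 arrays, at -2.01, -0.61 and -1.38 in untreated 1 to 3 and at -2.998, -0.65 and -1.11 in C5a 1 to 3. Its difference was -0.25, against 0.28 for the brighter probe, so the 2 probes pointed in opposite directions. Of the dimmer probes of Tuba1c, A_55_P2740841 differed by 0.28 and A_55_P2722644 by -0.77. The first was well above background on untreated 2, C5a 1 and C5a 2, and the other on untreated 2 and C5a 2. The dimmer probe of Tubb4b was likewise detected on untreated 2 and C5a 2 alone, with a difference of 0.32. These 3 dimmer probes were thus detected only on arrays among the 3 with the most detected probes. Tuba1a, Tubb2a, Tubb5 and Tubb6 had 1 probe each. The tubulin genes are near-identical copies in their coding parts, and whether a probe also binds a relative's transcript was not tested, as probe sequences were not used here.

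The 5 genes whose profile over the 6 arrays was nearest to that of Tuba1a, each centred on its own mean, were no tubulins. By root mean square distance in log2 units they were Mknk2, a kinase that acts on the translation factor eIF4E (0.54), Rpl14 of the large ribosomal subunit (0.62), Erh (0.66), the unnamed probe A_55_P2735800 (0.68) and Ptma, which encodes prothymosin alpha (0.70). Mknk2 was at -1.66, -3.21 and -1.54 in untreated 1 to 3 and at -1.11, -0.31 and -1.32 in C5a 1 to 3. It was detected in all 6 samples, and its groups did not overlap. Since Mknk2 was picked for its likeness to Tuba1a, nothing is read from that. The median distance of all genes was 1.29. Among the 4487 other genes, Tubb5 ranked 428 (1.13), Tubb6 811, Tuba1b 869, Tubb4b 1476, Tubb2a 2320 and Tuba1c 2984 (1.35). The untreated values of Tuba1a behind these distances were not well above background. With 6 arrays, likeness of this kind is a description only.

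Other genes of the tubulin superfamily were mostly not seen. Of 12 further tubulins, 9 were well above background on 0 arrays and 2 were measured well enough to be compared. Tuba3a, an alpha-tubulin best known from testis, had a signal well above background in all 6 samples, at -2.99, -2.62 and -3.06 in untreated 1 to 3 and at -3.90, -2.24 and -3.02 in C5a 1 to 3. The groups overlapped, with a difference of -0.16 (SE 0.44). Tubb2b, a neuronal beta-tubulin, was detected on 1 untreated and 2 C5a arrays and differed by 0.06 (SE 0.86). Gamma-tubulin, which seeds new microtubules, was well above background on 0 arrays through either of its genes, Tubg1 and Tubg2. None of the 12 had the detection pattern of Tuba1a.

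Genes for tubulin folding were measured more often. Of 23 folding and autoregulation genes, 12 were measured, 0 passed the test in either direction, and 6 differences were positive and 6 negative (median 0.01). The chaperonin subunits Cct5, Cct8 and Cct4, part of the ring that folds actin and tubulin, differed by 0.04 (SE 0.24), 0.04 (SE 0.27) and -0.01 (SE 0.27). Cct5 stayed between -1.15 and -0.97 over all 6 arrays. The lowest difference of the 12 was that of Cct6a (-1.005, SE 0.74), with overlapping groups. Among 20 nucleation genes 17 were well above background on 0 arrays, and only Haus8, of the augmin complex, was measured (-0.50, SE 0.58).

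Genes that act on microtubules gave no call. Of 21 genes for plus-end and stabilising proteins, 2 were measured, Mapre1, the plus-end protein EB1, at 0.60 (SE 0.33) and Map7d1 at -0.06 (SE 0.30). Spast, the severing enzyme spastin, was the only measured gene of 14 in the destabilising and severing list (0.44, SE 0.36). Of 21 tubulin-modifying genes 3 were measured. Vash1, a carboxypeptidase that removes the last tyrosine of alpha-tubulin, differed by -0.18 (SE 0.40), its partner Svbp by 0.13 (SE 0.61) and the deacetylase Sirt2 by -0.20 (SE 0.44). Each of these genes had overlapping groups.

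Among the motor proteins, all 4 measured kinesin genes of 20 had positive differences (median 0.35), beside 54.9% of all genes, with 0 called. With normexp all 4 were negative, and 22.3% of all genes were positive. Kif1c, Klc2 and Kif21b were each detected on 1 untreated array, and on 3, 2 and 2 C5a arrays. Kif5b, the main conventional kinesin heavy chain, differed by 0.03 (SE 0.26), Kif1c by 0.18 (SE 0.28) and the light chain Klc2 by 0.62 (SE 0.41). Of 26 dynein and dynactin genes 13 were measured, 5 positive and 8 negative (median -0.11) with 0 called. Dynll1, a dynein light chain, differed by -0.11 (SE 0.29), and the dynactin subunits Actr1a and Actr10 by -0.21 (SE 0.31) and 0.13 (SE 0.32). Pafah1b1, the dynein regulator Lis1, was the 1 gene of 38 measured in these lists whose C5a samples all lay above the untreated ones (0.36, SE 0.27), beside 3.36% of all genes. Pafah1b1 was chosen for mention after its values were seen. So were the lowest differences of the dynein and dynactin list, Dynlt1c (-1.33, SE 0.68), Dctn3 (-1.03, SE 0.79) and Dctn2 (-0.79, SE 0.41), all with overlapping groups.

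The actin cytoskeleton and cell division served as points of comparison. Of 27 actin genes 26 were measured and 0 were called, with 15 positive and 11 negative differences (median 0.05). Actn4, an actin-crosslinking alpha-actinin, was the 1 of these genes whose C5a samples all lay above the untreated ones, at -3.53, -3.56 and -3.08 in untreated 1 to 3 and at -2.48, -2.33 and -2.40 in C5a 1 to 3. Actn4 was detected in 1 untreated and 3 C5a samples and differed by 0.99 (SE 0.26). Non-overlap with C5a above held for 3.36% of all genes, and Actn4 was chosen for mention after its values were seen. Actb, cytoplasmic beta-actin, was at 4.82, 4.70 and 4.56 in untreated 1 to 3 and at 4.86, 4.66 and 4.37 in C5a 1 to 3, a difference of -0.07 (SE 0.26). Tmsb4x, which encodes the actin-sequestering thymosin beta 4, differed by 0.35 (SE 0.28) and Arpc2, of the Arp2/3 complex, by -0.01 (SE 0.25). Of 23 genes of dividing cells, 17 were well above background on 0 arrays, and 4 were measured with 0 called. Of these, Mki67, a marker of cycling cells, differed by -0.05 (SE 0.54), Pcna, the DNA polymerase clamp, by 0.36 (SE 0.48) and Mcm3 by 0.01 (SE 0.48). The fourth, the replication helicase subunit Mcm4, was detected on 1 untreated and 3 C5a arrays and differed by 1.33 (SE 0.65) with overlapping groups.

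**Figure D5:**
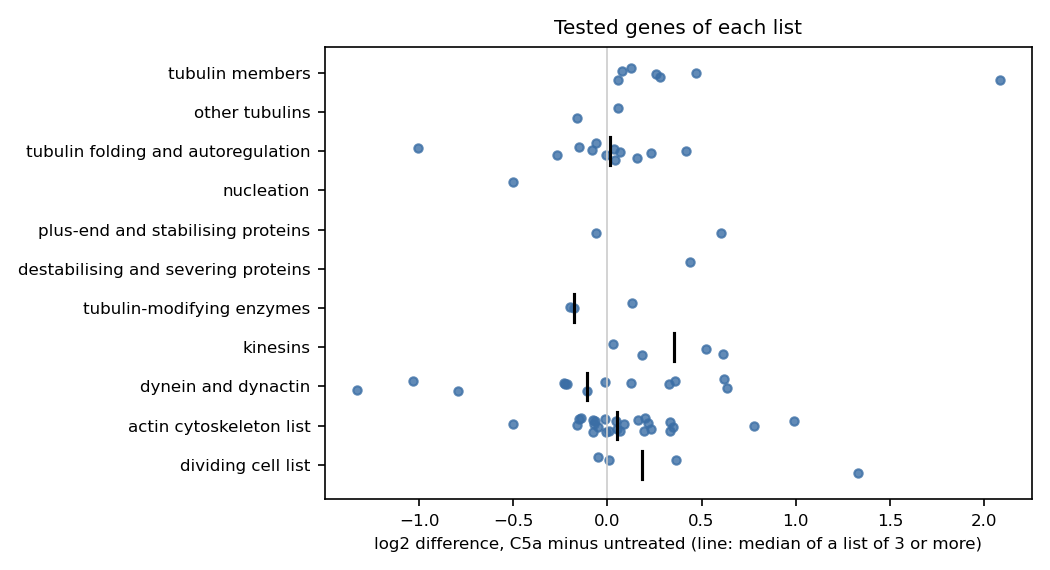
Log2 difference, C5a minus untreated, of every measured gene in the tubulin set and in the lists of tubulin partners, actin and dividing cell genes, with a black line at the median of lists of 3 or more genes. Tuba1a is the point at 2.08, and its untreated signals were not well above background. The other genes lie between -1.33 and 1.33.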

How the data were processed

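Per the file headers, the deposited scanner files hold spot intensity from Agilent Feature Extraction 10.10.1.1, background-subtracted within the array, without scaling between arrays. Deposited flags, set to 0 or 1 per spot by the scanner software per the file headers, mark spots well above background. The deposited series table holds log2 values per probe. Set against log2 scanner signal scaled to the 75th percentile of all probes, 98.9% of differences between arrays matched to within 0.01. This settles scale and direction, but the baseline of each probe stays unknown. The median of each column was 0.17, -0.08 and 0.18 (untreated) and 0.01, -0.02 and 0.22 (C5a), in the order of the sample numbers.

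Control spots were left out and non-outlier spots of a probe averaged as log2. A probe counted as detected where at least 0.5 of its spots were well above background. RefSeq accessions (GRCm38.p6) named 32994 of 56605 probes. The array design cites build mm9, so coordinates are given only for RefSeq promoters. Levels were log2 signal minus each array's 75th percentile over the 2370 probes detected on all arrays. Probes detected on at least 3 arrays were kept, and the brightest stood for its gene. This gave 4488 genes, fitted with limma 3.58.1 (R 4.3.3), checked on simulated data, without the replicate number. Deviations from group means of samples 1, 2 and 3 correlated across groups at 0.21, 0.27 and 0.38, so the numbers were taken as pairs in an alternative fit. For normexp (offset 50), the median spot signal was used in place of the planned mean signal. The number of arrays limits the precision.

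Besides all 8 members, the 3 brightest measured genes of each list and the 5 genes nearest to Tuba1a were named. Tubg1, Tubg2, Pafah1b1, Actn4, Mcm4, Dynlt1c, Dctn3, Dctn2 and Cct6a were added after their values were seen. Members and lists were chosen with earlier results of these data known.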

Additional observations from a re-analysis of the deposited data

How the results depend on the processing

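The alternatives tried changed the scaling, background correction, filter, choice of probe, source of values, model or samples used. All genes together gave 0 calls in limma in each of them except without the filter on dim probes, where 47 of 46522 genes were called. Unnamed probes count as genes here too. With the replicate number as a block, 0 genes were called (190 with an unadjusted p under 0.05), so the pairing changed no call. The Tuba1a difference, 2.08 from measured values, was 0.57 with normexp, where an offset of 50 is added to signals of this size. It ranged from 1.57 (without C5a replicate 2) to 2.44 (without C5a replicate 1) when a sample was left out, and no value exists under the filter for all 6 arrays. Slide row 1 held the untreated arrays and C5a 1, whose Tuba1a difference there was 1.38. Tuba1a had the detection pattern with every spot required and with any probe accepted, whereas 0 tubulins had it by the less strict flag. Signs turned in 5 of 15 alternatives for Tubb2a and for Tubb4b, in 2 for Tuba1c and in 0 for Tuba1b, Tubb5 and Tubb6. Scaling over all probes moved the median of all genes to 0.40, the deposited table also to 0.40, quantile normalization to 0.10 and normexp to -0.12. Positive differences were then 86.8% of genes with scaling over all probes and 22.3% with normexp. Relative to the median of the same setting, Tuba1a was at 2.05 with scaling over all probes. Tubb2a and Tubb4b lay below that median with quantile normalization. With slide row as a covariate, which rests on C5a 1, Tuba1a was at 1.24 and Tuba1b at 0.16. Tuba1c (-0.33), Tubb2a (-0.35), Tubb4b (-0.42), Tubb5 (-0.04) and Tubb6 (-0.05) then lay below it. Tuba1b did so with the kept probes averaged (-0.02), and Tuba1c, Tubb2a and Tubb4b in some fits without a sample. Signal over background limits what can be said of Tuba1a in untreated cells and of Tuba4a.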
